A study of Mus musculus with 20 samples.

Results

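The BAF and NuRD complexes are chromatin remodelers built from many subunits, and 35 genes that encode their subunits were read from a deposited RNA-seq table of 51810 mouse genes. The members were chosen by gene symbol from what the complexes are known to contain, 22 from BAF and 13 from NuRD. Each symbol matched 1 row, and all 35 genes passed the filter on low counts. The smallest member count in any library was 399 fragments, of Mta3.

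The cells were medullary thymic epithelial cells (mTEC), stromal cells of the thymus that show self-antigens to developing T cells. They came from mice of 4 to 5 weeks, 75000 sorted cells per sample. There were 4 groups of 3 libraries: mTEClo and mTEChi, each from Trp53 wild type (WT) and from cHyper animals, where mTEClo and mTEChi are the less and the more mature state by convention. What cHyper stands for, the driver of any conditional allele and the sort gates behind the EpCAM-enriched cells have no description among the labels.

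BAF uses the energy of ATP to slide or eject nucleosomes and is known for opening enhancers and promoters. It is assembled as canonical BAF (with ARID1A or ARID1B and DPF2), as PBAF (with ARID2, PBRM1, BRD7 and PHF10) or as non-canonical BAF (with BRD9). Each form has an ATPase, SMARCA2 or SMARCA4, and core subunits, not all of which are part of non-canonical BAF. NuRD joins a CHD-family ATPase to the histone deacetylases HDAC1 and HDAC2 and is known for closing and tuning regulatory DNA, with MTA scaffolds, the methyl-CpG binding family proteins MBD2 or MBD3, GATAD2 bridges and the histone chaperones RBBP4 and RBBP7. Many places of both complexes can be filled by more than 1 paralog, in some cases side by side, so the mix of paralogs is part of what the RNA can show. Mature mTEC are known for transcribing a very large share of the genome.

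Totals ran from 22.02 to 47.93 M fragments per library, and replicate 3 of each group was the shallowest of its group. Replicate 3 of every group also held 1013 to 1759 CPM of Xist, the RNA of the inactive X chromosome of females, while replicates 1 and 2 held 3.73 to 8.35 CPM. Sex, depth and run scheme therefore moved together with replicate 3, equally in the 4 groups. In mTEClo Trp53 stood at 136 to 138 CPM with the WT label and at 154 to 177 with the cHyper label. In mTEChi these ranges were 97.9 to 107 and 129 to 138 CPM. Cdkn1a, a p53 target, was lower in cHyper than in WT in both cell types, with 28.4 to 32.1 against 48.7 to 66.9 CPM in mTEClo and 92.5 to 109.6 against 152 to 182 CPM in mTEChi. The epithelial marker Epcam stood at 413 to 622 CPM in all 12 libraries, and Aire, the transcription factor of mature mTEC, at 11.3 to 51.4 CPM in mTEClo and 1280 to 1922 CPM in mTEChi.

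The promoters of 3 members are shown because they belong to the NuRD gene that fell most in mTEChi (Mta1), to its more abundant paralog (Mta2) and to the member that rose (Rbbp7). The stretches are from RefSeq on GRCm38.p6 and end before the first base of the deposited gene model. They lie on the plus strand at chr12:113098028-113098277 (Mta1), chr19:8941670-8941874 (Mta2) and chrX:162760122-162760371 (Rbbp7). For Rbbp7 the RefSeq start lies 30 bases before the deposited gene model, and the 40 bases that follow this start are in no GENCODE transcript of the gene, so this start was not matched by the transcripts checked. The stretches are written 5′ to 3′ with each GGGCGG (GC box) and each CCAAT, on either strand, in capitals.
Mta1: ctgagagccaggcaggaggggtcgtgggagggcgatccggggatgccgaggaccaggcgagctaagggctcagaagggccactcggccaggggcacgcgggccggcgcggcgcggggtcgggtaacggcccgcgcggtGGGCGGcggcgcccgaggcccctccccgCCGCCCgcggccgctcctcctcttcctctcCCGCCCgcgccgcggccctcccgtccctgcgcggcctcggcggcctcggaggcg
Mta2: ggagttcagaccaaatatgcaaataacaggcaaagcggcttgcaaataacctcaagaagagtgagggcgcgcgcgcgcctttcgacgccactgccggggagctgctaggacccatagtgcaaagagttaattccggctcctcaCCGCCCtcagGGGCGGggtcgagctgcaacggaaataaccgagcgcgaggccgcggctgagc
Rbbp7: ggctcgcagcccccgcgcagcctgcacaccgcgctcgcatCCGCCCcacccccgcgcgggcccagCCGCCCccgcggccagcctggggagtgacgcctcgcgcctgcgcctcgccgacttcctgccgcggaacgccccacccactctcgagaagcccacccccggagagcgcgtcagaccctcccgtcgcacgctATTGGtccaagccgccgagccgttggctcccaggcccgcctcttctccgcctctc
The Mta1 stretch held 3 GC boxes, no CCAAT and 39 CpG. The Mta2 stretch, 205 bases long, held 2 GC boxes, no CCAAT and 19 CpG. The Rbbp7 stretch held 2 GC boxes, 1 CCAAT on the minus strand and 34 CpG. Among 32817 RefSeq windows of 250 bases, 32.7% held a GC box and 33.8% a CCAAT, with a median of 6 CpG. At the length of the Mta2 stretch 25.6% held a GC box and 29.2% a CCAAT.

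RefSeq windows were found for 27 of the 35 members, 32 windows in all, and for 28 of these the bases after the start were found in a GENCODE transcript of the gene. A GC box stood in 29 of the 32 (90.6%) and a CCAAT in 8 (25.0%). TGACG, the core of a CREB site, stood in 10 windows (31.3%) against 17.7% of all windows. TTCCCGCC, the core of an E2F site, stood in 2 (6.25%) against 1.85%, and TTTGAA in 0 against 15.98%. The median CpG count was 24.5 in the members' windows. These are matches of letters on either strand. Arid2, Mta3, Ss18, Mbd2, Hdac1, Smarce1, Bcl7a and Chd3 had no window.

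Levels were compared between genes as TPM, that is per gene length. In WT mTEClo the most abundant members were Rbbp7, at 173, 157 and 160.0 TPM, and Mta2, at 133, 116 and 112 TPM. Chd4, Mbd3 and Smarcc2 followed with overlapping ranges, at means of 103, 97.9 and 97.8 TPM. The lowest were Mta3, at 9.79, 7.23 and 8.40 TPM, and Hdac1, at 14.6, 14.8 and 14.6 TPM. Smarca4 stood at 67.96 ± 2.40 TPM (SD, n = 3) and Smarca2 at 32.0 ± 7.29. The 35 members summed to 1456 to 1707 TPM in mTEClo and 1286 to 1587 in mTEChi of WT, and to 1452 to 1744 and 1419 to 1545 in those of cHyper, ranges that overlap.

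Between the cell types of WT, most subunit genes of both complexes were lower in mTEChi. The BAF ATPases and the NuRD deacetylases did not pass the test, which for them depended on the scaling between libraries. Of the 35 members 23 fell and 1 rose (edgeR quasi-likelihood test, Benjamini-Hochberg adjusted p under 0.05 over all genes, termed called below). Of all 28932 genes tested, 29.4% were called lower and 40.2% higher, 69.5% in all. The median log2 fold change of the members was -0.49 against 0.12 over all genes. All genes here means genes of every level that passed the filter, and no comparison with genes of a like level was made. In cHyper 20 members fell and 2 rose, beside 25.8% of all genes called lower and 38.7% higher (64.5% in all), with medians of -0.39 for the members and 0.13 for all genes. The 20 members that fell in cHyper also fell in WT, which is 87.0% of the 23 called there and 100% of those called in cHyper. Over all genes the same shares were 78.5% and 89.5%. In 22 members all WT mTEChi libraries lay below all WT mTEClo libraries and in 1 above, beside 31.4% and 41.8% of all genes (73.3% in all). In cHyper these counts were 21 and 4, beside 28.4% and 40.3% (68.7% in all). In RNA of bulk sorted cells, fewer cells of a type and less RNA per cell cannot be told apart.

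**Figure D1:**
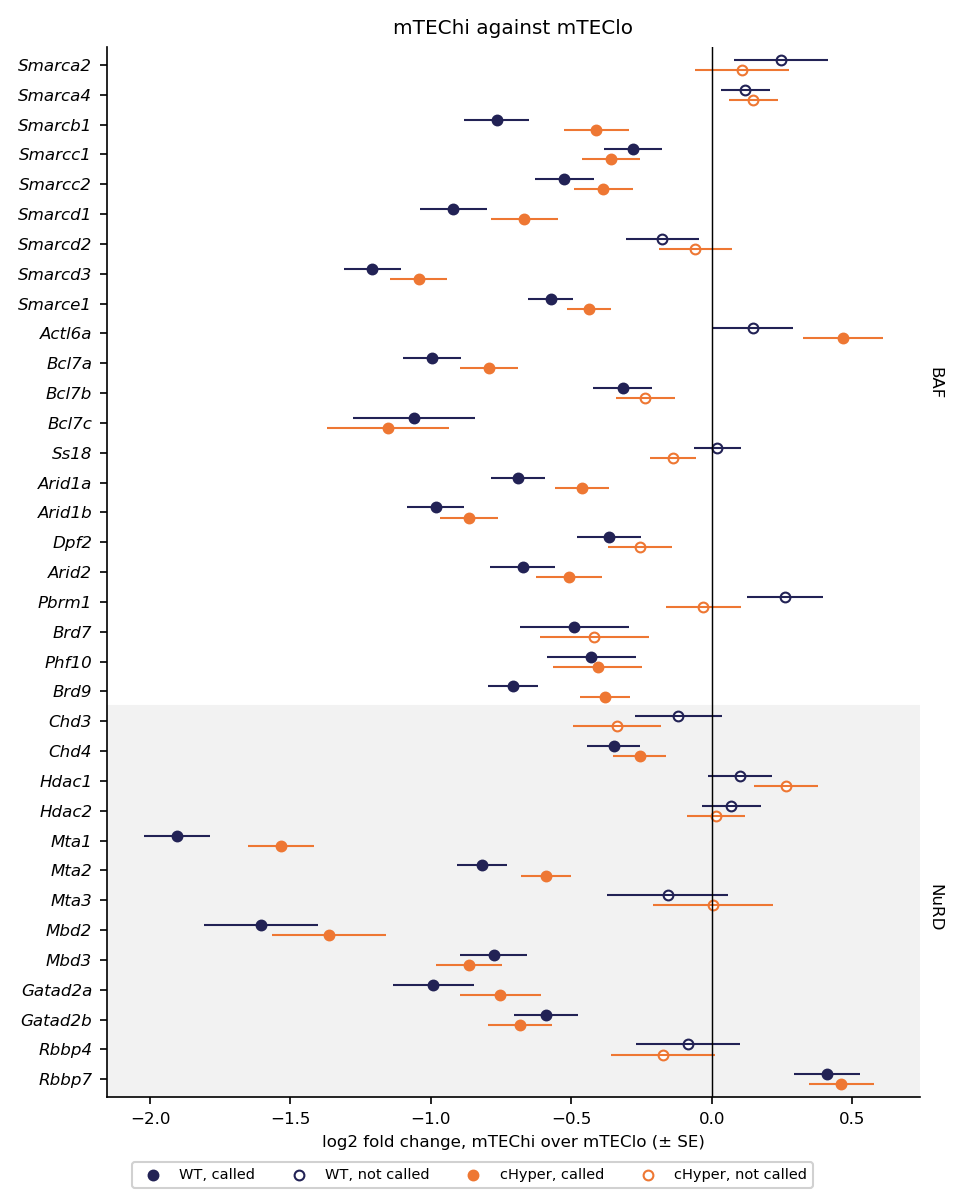
Log2 fold change of mTEChi over mTEClo (x axis, bars ± SE) for the 35 members in WT (dark blue) and cHyper (orange), 3 libraries per group. Filled points are called, open points are not, and NuRD members are shaded. Mta1 and Mbd2 lie farthest to the left, and Rbbp7 is filled on the right in both genotypes.

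The counts called in each direction moved with the scaling between libraries. Scaled by library totals, the median of all genes between the cell types moved from 0.12 to 0.34 in WT and from 0.13 to 0.30 in cHyper. The members then split into 8 called higher and 17 lower in WT, beside 45.3% and 21.7% of all genes. In cHyper they split into 4 higher and 15 lower, beside 43% and 19.2%. The 8 higher in WT were Rbbp7, Pbrm1, Smarca2, Smarca4, Actl6a, Ss18, Hdac1 and Hdac2. With DESeq2 size factors the split was 3 and 19 in WT, beside 42.3% and 26.1% of all genes, and 3 and 18 in cHyper, beside 39.9% and 23.6%. Relative to the median of all genes, the members' median was 0.61 lower on the log2 scale in WT under each of the 3 scalings, and 0.51 to 0.52 lower in cHyper. A change of scaling moves all genes by about the same amount. This gap could therefore hardly move and is no test of the scaling.

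Markers of other cells moved with the same comparison. In the libraries of mTEChi the summed level of 10 myeloid and dendritic genes was 506 to 684 CPM in WT and 510.4 to 563 in cHyper, against 36.4 to 44.9 and 33.1 to 54.1 CPM in mTEClo, and 9 of the 10 rose in WT and 10 in cHyper. The 5 B cell genes summed to 67.4 to 69.7 CPM in WT mTEChi and 8.03 to 11.4 in WT mTEClo, and all 5 rose in both genotypes. The 13 thymocyte genes summed to 68.9 to 82.0 CPM against 15.5 to 32.6 in WT, and 10 rose in WT and 7 in cHyper. The 18 cell cycle genes summed to 763 to 899 CPM against 317 to 605 in WT, with 11 called higher and 2 lower. No gene of these 4 lists was at 0 in all libraries of a group. The 4 endothelial genes tested rose in both genotypes, 3 of 7 fibroblast genes rose and 2 fell in WT (4 and 3 in cHyper), and 8 of 14 mTEC genes rose and 3 fell in WT (7 and 4 in cHyper). Of all genes 40.2% were called higher and 29.4% lower in WT, and 38.7% and 25.8% in cHyper. The part of these other cells in the results between the cell types was not tested.

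Of the BAF ATPases, neither changed by the test. Smarca4 read 190.5, 211 and 217 CPM in WT mTEClo and 225, 233 and 214 in WT mTEChi, ranges that overlap (log2 0.12, SE 0.087, adjusted p = 0.230). In cHyper Smarca4 read 217, 204 and 208 CPM in mTEClo and 229, 225 and 242 in mTEChi, which do not overlap (log2 0.15, adjusted p = 0.150). Smarca2 ranged from 164 to 285 CPM over the 12 libraries, lowest in replicate 3 of each group, with log2 fold changes of 0.25 (SE 0.17, adjusted p = 0.203) in WT and 0.11 (adjusted p = 0.593) in cHyper. Scaled by library totals, both ATPase genes were called higher in WT mTEChi, and Smarca4 also with DESeq2 size factors (adjusted p = 0.0367) and DESeq2 (0.0126). In cHyper mTEChi Smarca4 was called higher in 2 of the 20 alternatives, library totals and DESeq2. With the replicate number as a block, Smarca2 was called higher in WT (adjusted p = 0.00604).

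Of the 7 genes grouped here as the BAF core, 6 were lower in mTEChi in both genotypes. Smarcb1, the small core subunit that contacts the nucleosome, read 87.4, 112 and 103 CPM in WT mTEClo and 89.3, 90.9 and 87.7 in cHyper mTEClo. In mTEChi, Smarcb1 read 55.4, 68.8 and 53.4 CPM in WT and 65.8, 62.1 and 73.7 in cHyper. Smarcb1 fell 1.70-fold in WT (log2 -0.77, SE 0.12, adjusted p = 3.76e-05) and 1.33-fold in cHyper, and the cell types did not overlap in either genotype. The cHyper call was lost when libraries were scaled by their totals (adjusted p = 0.0717).

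Smarcc1 and Smarcc2 encode the scaffold pair on which the core is built. Smarcc1 read 122, 126 and 109 CPM in WT mTEClo and 149, 160.2 and 131 in cHyper mTEClo. In mTEChi, Smarcc1 read 101, 105 and 87.3 CPM in WT and 118, 109 and 117 in cHyper. Smarcc1 fell 1.21-fold in WT (log2 -0.28, SE 0.10, adjusted p = 0.0257) and 1.28-fold in cHyper (adjusted p = 0.00694), without overlap. Both Smarcc1 calls were lost under library totals (adjusted p = 0.561 in WT and 0.0858 in cHyper), and the WT call also without WT mTEClo replicate 1 (0.0660) or 2 (0.0959) and without WT mTEChi replicate 3 (0.113). In all the WT call of Smarcc1 was kept in 13 of the 20 alternatives. Smarcc2 read 261, 269 and 231 CPM in WT mTEClo and 249.7, 251 and 217 in cHyper mTEClo. In mTEChi, Smarcc2 read 193, 180.1 and 156 CPM in WT and 194, 177 and 179 in cHyper. Smarcc2 fell 1.44-fold in WT (log2 -0.52, SE 0.10, adjusted p = 0.000424) and 1.31-fold in cHyper (adjusted p = 0.00484), again without overlap, and the cHyper call was lost under library totals (0.0618).

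The SMARCD place is taken by 1 of 3 paralogs that link the core to transcription factors. Smarcd1 read 46.6, 50.9 and 46.0 CPM in WT mTEClo and 45.9, 49.2 and 39.1 in cHyper mTEClo. In mTEChi, Smarcd1 read 23.5, 26.3 and 26.0 CPM in WT and 25.0, 27.1 and 32.7 in cHyper. Every mTEChi library lay below every mTEClo library, a fall of 1.89-fold in WT (log2 -0.92, SE 0.12, adjusted p = 7.46e-06) and 1.59-fold in cHyper (adjusted p = 0.000188). Smarcd3, known for its role in heart and muscle, read 46.8, 43.4 and 54.4 CPM in WT mTEClo and 40.4, 37.5 and 39.0 in cHyper mTEClo. In mTEChi, Smarcd3 read 20.0, 21.1 and 21.3 CPM in WT and 19.6, 18.7 and 18.4 in cHyper. Smarcd3 fell 2.31-fold in WT (log2 -1.21, SE 0.10, adjusted p = 7.45e-08) and 2.06-fold in cHyper (adjusted p = 4.61e-07), the largest fall in WT among the 22 BAF members. Of the exon bases of Smarcd3, 48.2% also lie in genes on the opposite strand, chiefly Chpf2, and no source used here gives the strand setting of the counting. Chpf2 fell in the same comparisons (log2 -1.09 in WT and -0.89 in cHyper), so how much of the Smarcd3 values is Chpf2 RNA was not tested. For Smarcd1 the shared part was 12.7%. Smarcd2, the most abundant of the 3 per length, ranged from 97.2 to 155 CPM and was not called (log2 -0.18, SE 0.13, adjusted p = 0.243 in WT and -0.06, adjusted p = 0.709 in cHyper).

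Smarce1, the DNA-binding HMG-box subunit, read 83.8, 80.8 and 83.0 CPM in WT mTEClo and 83.1, 83.1 and 78.0 in cHyper mTEClo. In mTEChi, Smarce1 read 54.2, 56.1 and 56.0 CPM in WT and 61.3, 56.6 and 62.6 in cHyper. Smarce1 had the smallest standard error of the core genes, and it fell 1.49-fold in WT (log2 -0.57, SE 0.079, adjusted p = 1.43e-05) and 1.35-fold in cHyper (adjusted p = 0.000213), without overlap.

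**Figure D2:**
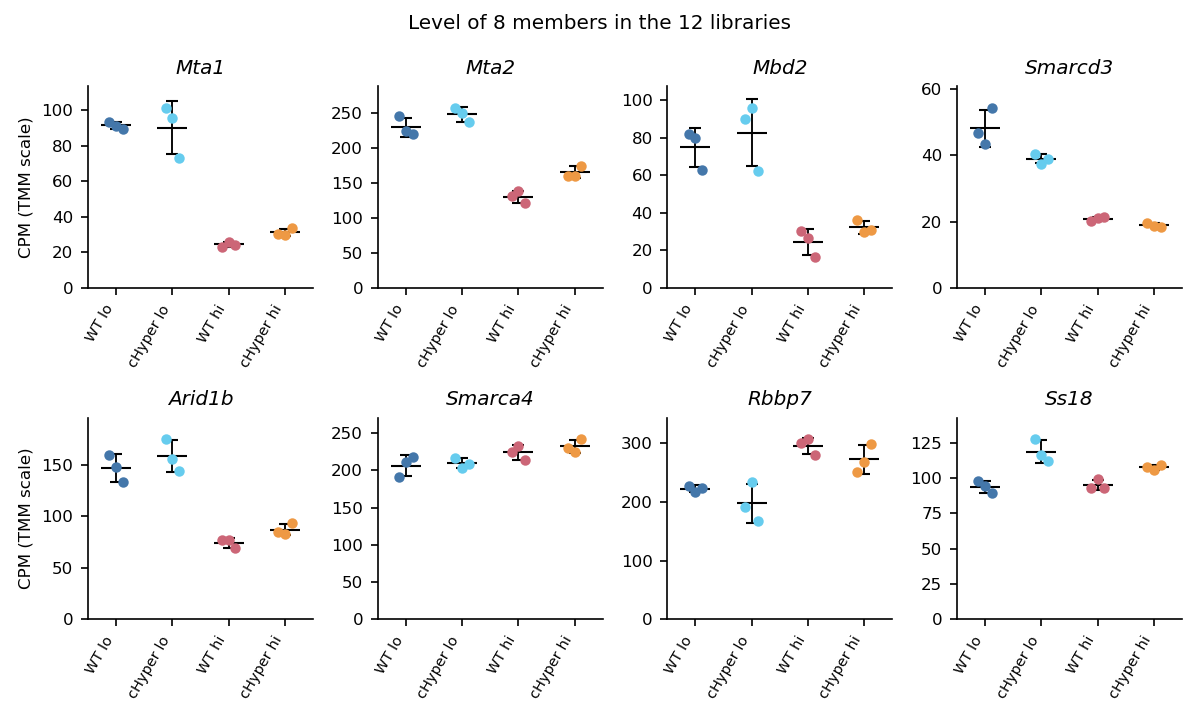
CPM on the TMM scale (y axis, from 0) of 8 members in the 12 libraries, lo standing for mTEClo and hi for mTEChi. Points are libraries, the horizontal line is the mean and the bar ± SD (n = 3). Mta1, Mta2, Mbd2, Smarcd3 and Arid1b lie lower in every mTEChi library than in any mTEClo library, while Smarca4 and Ss18 do not separate the cell types over both genotypes.

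The subunits that sit on the ATPase arm went different ways. Actl6a, the actin-related protein of dividing cells, read 38.7, 41.1 and 47.0 CPM in WT mTEClo and 32.9, 50.1 and 34.6 in cHyper mTEClo. In mTEChi, Actl6a read 43.3, 50.3 and 46.8 CPM in WT and 51.3, 57.4 and 53.8 in cHyper. Actl6a rose 1.38-fold in cHyper (log2 0.47, SE 0.14, adjusted p = 0.0100), where the groups do not overlap, and in WT, where they do, its log2 fold change was 0.15 (adjusted p = 0.369). The difference between the genotypes was not called for Actl6a (log2 0.32, SE 0.20, adjusted p = 0.523). The cHyper call was lost without cHyper mTEClo replicate 1 (adjusted p = 0.0794) or 3 (0.0623) and with replicates 1 and 2 only (0.0929), and 11.6% of the exon bases of Actl6a lie in Mrpl47 on the other strand.

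The BCL7 proteins are small partners of the ATPase. Bcl7a read 92.4, 84.5 and 80.7 CPM in WT mTEClo and 94.5, 75.7 and 77.9 in cHyper mTEClo. In mTEChi, Bcl7a read 45.7, 44.1 and 39.3 CPM in WT and 47.2, 48.4 and 47.6 in cHyper. Bcl7a fell 1.99-fold in WT (log2 -1.0, SE 0.10, adjusted p = 7.17e-07) and 1.73-fold in cHyper (adjusted p = 8.99e-06), without overlap. Bcl7c read 52.8, 59.8 and 54.0 CPM in WT mTEClo and 81.3, 57.8 and 35.04 in cHyper mTEClo, where the libraries lay far apart. In mTEChi, Bcl7c read 27.4, 30.2 and 22.1 CPM in WT and 26.7, 27.5 and 24.2 in cHyper. Bcl7c fell 2.09-fold in WT (log2 -1.06, SE 0.22, adjusted p = 0.000516) and 2.22-fold in cHyper (adjusted p = 0.000305). Bcl7b read 29.1, 31.3 and 28.0 CPM in WT mTEClo and 33.4, 33.3 and 28.1 in cHyper mTEClo. In mTEChi, Bcl7b read 22.5, 23.6 and 24.9 CPM in WT and 26.5, 29.0 and 24.9 in cHyper. Bcl7b fell 1.25-fold in WT (adjusted p = 0.0152), and in cHyper, where the ranges overlap, it was not called (adjusted p = 0.0632). Bcl7b was called lower in cHyper in 5 of the 20 alternatives, namely the replicate block (adjusted p = 0.0360), replicates 1 and 2 only (0.0348), and without cHyper mTEClo replicate 3 (0.0135), WT mTEClo replicate 3 (0.0393) or cHyper mTEChi replicate 2 (0.0483). The WT call of Bcl7b was lost under library totals (adjusted p = 0.377), with DESeq2 size factors (0.0640), without WT mTEClo replicate 2 (0.0641) and without WT mTEChi replicate 1 (0.0628).

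Ss18, the coactivator fused to SSX proteins in synovial sarcoma, read 98.0, 93.9 and 89.3 CPM in WT mTEClo and 93.2, 99.4 and 92.6 in WT mTEChi, which overlap. Its log2 fold change between the cell types was 0.02 (SE 0.083, adjusted p = 0.845) in WT and -0.14 (adjusted p = 0.160) in cHyper.

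Of the subunits that define canonical BAF, both ARID1 genes fell in both genotypes. Arid1a, which holds the core to the ATPase and binds DNA, read 218, 203 and 188 CPM in WT mTEClo and 219, 198 and 204 in cHyper mTEClo. In mTEChi, Arid1a read 134, 129.8 and 114 CPM in WT and 154, 139.8 and 157 in cHyper. Arid1a fell 1.61-fold in WT (log2 -0.69, SE 0.097, adjusted p = 1.69e-05) and 1.38-fold in cHyper (adjusted p = 0.000718), without overlap. Arid1b, its exclusive alternative, read 159.7, 148 and 133 CPM in WT mTEClo and 175, 155 and 144 in cHyper mTEClo. In mTEChi, Arid1b read 76.8, 77.2 and 68.7 CPM in WT and 84.3, 83.1 and 92.9 in cHyper. Arid1b fell 1.98-fold in WT (log2 -0.98, SE 0.10, adjusted p = 7.80e-07) and 1.82-fold in cHyper (adjusted p = 3.54e-06). Dpf2, the reader of modified histone H3 tails, read 78.4, 68.9 and 64.0 CPM in WT mTEClo and 76.5, 80.6 and 65.9 in cHyper mTEClo. In mTEChi, Dpf2 read 60.5, 56.3 and 47.3 CPM in WT and 60.7, 60.9 and 65.4 in cHyper. Dpf2 fell 1.29-fold in WT (adjusted p = 0.0103), a call lost under library totals (0.220), without WT mTEClo replicate 1 (0.0561) and without WT mTEChi replicate 3 (0.0538). In cHyper Dpf2 was not called (adjusted p = 0.0615). It was called lower there in 8 of the 20 alternatives, namely replicates 1 and 2 only (adjusted p = 0.00490), the compared groups only (0.0295), the replicate block (0.0301), and without replicate 3 of cHyper mTEClo (0.0130), WT mTEClo (0.0312), cHyper mTEChi (0.0430) or WT mTEChi (0.0430) or without WT mTEChi replicate 1 (0.0392).

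The PBAF genes split. Arid2 read 129, 119 and 104 CPM in WT mTEClo and 131, 118 and 107 in cHyper mTEClo. In mTEChi, Arid2 read 79.9, 77.3 and 62.7 CPM in WT and 88.2, 84.0 and 77.8 in cHyper. Arid2, the ARID protein of PBAF, fell 1.60-fold in WT (log2 -0.67, SE 0.12, adjusted p = 0.000128) and 1.42-fold in cHyper (adjusted p = 0.00151), without overlap. Pbrm1, the subunit with several bromodomains, ranged from 134 to 221 CPM over the 12 libraries and was not called (log2 0.26, SE 0.13, adjusted p = 0.0964 in WT and -0.03, adjusted p = 0.856 in cHyper). Pbrm1 was called higher in WT mTEChi in 6 of the 20 alternatives, namely library totals (adjusted p = 0.00426), the replicate block (0.00700), DESeq2 (0.0218), DESeq2 size factors (0.0260), and without WT mTEClo replicate 1 (0.0189) or WT mTEChi replicate 3 (0.0312). Brd7, a bromodomain protein, read 59.2, 55.1 and 42.3 CPM in WT mTEClo and 77.7, 62.0 and 44.1 in cHyper mTEClo. In mTEChi, Brd7 read 43.7, 38.3 and 29.6 CPM in WT and 52.4, 40.9 and 44.5 in cHyper. Brd7 fell 1.40-fold in WT (log2 -0.49, SE 0.19, adjusted p = 0.0362) although its ranges overlap. In cHyper Brd7 was not called (adjusted p = 0.0724). It was called lower there in 6 of the 20 alternatives, namely replicates 1 and 2 only (adjusted p = 0.00423), the replicate block (0.00721), no filter (0.0172), and without cHyper mTEClo replicate 3 (0.00539), WT mTEClo replicate 3 (0.0417) or cHyper mTEChi replicate 1 (0.0437). The WT call of Brd7 was lost without WT mTEClo replicate 1 (adjusted p = 0.126) or 2 (0.0882) and without WT mTEChi replicate 2 (0.0666) or 3 (0.148). That call was also lost under library totals, and in all it was kept in 13 of the 20 alternatives.

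Phf10 read 51.8, 53.3 and 46.6 CPM in WT mTEClo and 47.4, 57.0 and 32.9 in cHyper mTEClo. In mTEChi, Phf10 read 37.1, 40.6 and 34.9 CPM in WT and 33.9, 38.7 and 31.1 in cHyper. Phf10, the PHD-finger protein of PBAF, fell 1.35-fold in WT (log2 -0.43, SE 0.16, adjusted p = 0.0256) and 1.33-fold in cHyper (adjusted p = 0.0356), where its ranges overlap. The WT call of Phf10 was lost without WT mTEClo replicate 1 (adjusted p = 0.0597) or 2 (0.0721) and without WT mTEChi replicate 1 (0.0618) or 3 (0.0803). Its cHyper call was lost without cHyper mTEClo replicate 1 (adjusted p = 0.0622) or 2 (0.231) and without cHyper mTEChi replicate 1 (0.0715) or 3 (0.0874). Both Phf10 calls were also lost under library totals. In all they were kept in 13 of the 20 alternatives in WT and in 12 in cHyper. Brd9, which marks non-canonical BAF, read 62.4, 59.5 and 56.5 CPM in WT mTEClo and 48.3, 51.8 and 47.3 in cHyper mTEClo. In mTEChi, Brd9 read 35.6, 37.0 and 36.8 CPM in WT and 36.6, 40.9 and 35.7 in cHyper. Brd9 fell 1.63-fold in WT (log2 -0.71, SE 0.089, adjusted p = 5.92e-06) and 1.30-fold in cHyper (adjusted p = 0.00174), without overlap.

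In NuRD the falls were concentrated in the MTA, MBD and GATAD2 genes. Chd4, the main NuRD ATPase, read 379, 409 and 375 CPM in WT mTEClo and 378, 416 and 355 in cHyper mTEClo. In mTEChi, Chd4 read 311, 313 and 289 CPM in WT and 331, 302 and 329 in cHyper. Chd4 fell 1.27-fold in WT (log2 -0.35, SE 0.095, adjusted p = 0.00427) and 1.19-fold in cHyper (adjusted p = 0.0273), without overlap. The Chd4 calls were lost under library totals (adjusted p = 0.186 in WT and 0.387 in cHyper), and the cHyper call also without cHyper mTEClo replicate 2 (0.127) and without cHyper mTEChi replicate 2 (0.108). In all the cHyper call of Chd4 was kept in 16 of the 20 alternatives. Chd3 ranged from 229 to 399 CPM and was not called (log2 -0.12, SE 0.16, adjusted p = 0.508 in WT and -0.34, adjusted p = 0.0702 in cHyper). Chd3 was called lower in cHyper in 6 of the 20 alternatives, namely the replicate block (adjusted p = 0.00265), replicates 1 and 2 only (0.0107), no filter (0.0240), and without cHyper mTEClo replicate 3 (0.00915), WT mTEClo replicate 3 (0.0336) or cHyper mTEChi replicate 1 (0.0436). Hdac1 ranged from 19.7 to 28.3 CPM and Hdac2 from 142 to 204 CPM, and neither was called in WT (log2 0.10, adjusted p = 0.449, and 0.07, adjusted p = 0.565). Scaled by library totals, both were called higher in WT mTEChi (adjusted p = 0.0220 for Hdac1 and 0.0119 for Hdac2). In cHyper Hdac1 read 21.1, 21.4 and 19.7 CPM in mTEClo and 22.5, 24.4 and 28.2 in mTEChi, without overlap, and was not called (adjusted p = 0.0556). Hdac1 was called higher in 6 of the 20 alternatives, namely library totals (adjusted p = 0.00381), DESeq2 (0.0141), DESeq2 size factors (0.0234), the replicate block (0.0354), without cHyper mTEChi replicate 1 (0.0423) and without WT mTEChi replicate 3 (0.0489).

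Mta1 and Mta2 encode scaffolds that hold the deacetylases. Mta1 read 93.6, 91.5 and 89.6 CPM in WT mTEClo and 102, 95.9 and 73.2 in cHyper mTEClo. In mTEChi, Mta1 read 23.0, 26.1 and 24.2 CPM in WT and 30.2, 29.9 and 33.5 in cHyper. Mta1 had the largest fall of the 35 members, 3.74-fold in WT (log2 -1.90, SE 0.12, adjusted p = 2.96e-09) and 2.89-fold in cHyper (adjusted p = 3.40e-08), and its highest mTEChi library, at 33.5 CPM, lay far below its lowest mTEClo library, at 73.2. Mta2 read 245, 224 and 219.8 CPM in WT mTEClo and 258, 250.03 and 237 in cHyper mTEClo. In mTEChi, Mta2 read 131, 138 and 121 CPM in WT and 161, 159.5 and 175 in cHyper. Mta2 fell 1.76-fold in WT (log2 -0.82, SE 0.090, adjusted p = 1.37e-06) and 1.5-fold in cHyper (adjusted p = 4.42e-05), without overlap. Mta3, which was scarce, ranged from 15.4 to 28.0 CPM and was not called in WT (log2 -0.16, SE 0.22, adjusted p = 0.530) or in cHyper (adjusted p = 0.987).

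MBD2 binds methylated CpG, and MBD3 is its exclusive alternative that largely lacks that binding. Mbd2 read 82.1, 79.7 and 62.6 CPM in WT mTEClo and 89.7, 96.0 and 62.3 in cHyper mTEClo. In mTEChi, Mbd2 read 30.5, 26.4 and 16.6 CPM in WT and 36.0, 29.7 and 30.9 in cHyper. Mbd2 fell 3.04-fold in WT (log2 -1.61, SE 0.20, adjusted p = 6.07e-06) and 2.57-fold in cHyper (adjusted p = 3.44e-05), without overlap. Mbd3 read 91.1, 88.8 and 93.2 CPM in WT mTEClo and 124, 99.9 and 82.0 in cHyper mTEClo. In mTEChi, Mbd3 read 52.7, 53.9 and 52.7 CPM in WT and 54.8, 55.8 and 57.5 in cHyper. Mbd3 fell 1.71-fold in WT (log2 -0.78, SE 0.12, adjusted p = 3.69e-05) and 1.82-fold in cHyper (adjusted p = 1.56e-05), without overlap.

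GATAD2 proteins bridge the MBD part to the CHD ATPase. Gatad2a read 73.0, 73.7 and 79.5 CPM in WT mTEClo and 88.7, 75.7 and 81.4 in cHyper mTEClo. In mTEChi, Gatad2a read 39.8, 39.3 and 34.6 CPM in WT and 38.5, 44.9 and 62.8 in cHyper, where replicate 3 stood above the others. Gatad2a fell 1.99-fold in WT (log2 -0.99, SE 0.15, adjusted p = 2.55e-05) and 1.68-fold in cHyper (adjusted p = 0.000356). Gatad2b read 125, 114 and 100.4 CPM in WT mTEClo and 136, 128 and 116 in cHyper mTEClo. In mTEChi, Gatad2b read 82.5, 75.9 and 67.4 CPM in WT and 83.7, 69.9 and 83.5 in cHyper. Gatad2b fell 1.5-fold in WT (log2 -0.59, SE 0.11, adjusted p = 0.000313) and 1.60-fold in cHyper (adjusted p = 0.000103), without overlap.

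RBBP4 and RBBP7 are histone chaperones that NuRD shares with other complexes, among them Polycomb repressive complex 2. Rbbp7 read 227, 216 and 224 CPM in WT mTEClo and 191, 234 and 168 in cHyper mTEClo. In mTEChi, Rbbp7 read 299.9, 307 and 280.1 CPM in WT and 250.3, 267 and 299 in cHyper. Rbbp7 was the 1 member that rose in both genotypes, 1.33-fold in WT (log2 0.41, SE 0.12, adjusted p = 0.00572) and 1.38-fold in cHyper (log2 0.46, adjusted p = 0.00293), without overlap. The cHyper call was lost with replicates 1 and 2 only (adjusted p = 0.0600), and 5.98% of the exon bases of Rbbp7 lie in Txlng on the other strand. Rbbp7 is on the X chromosome, and replicate 3 was the Xist-rich library of each group. Rbbp4 ranged from 131 to 241 CPM and was not called (log2 -0.08, SE 0.18, adjusted p = 0.700 in WT and -0.17, adjusted p = 0.425 in cHyper).

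Ratios between families within a library do not depend on the scaling between libraries. As a description chosen after the values were seen, the TPM of each subunit family was divided by the TPM of the ATPases of its complex. The SMARCC family stood at 1.35, 1.32 and 1.23 per BAF ATPase in WT mTEClo and at 0.875, 0.846 and 0.814 in WT mTEChi. The 3 ARID genes stood at 0.940, 0.829 and 0.812 against 0.463, 0.454 and 0.439. The MTA family stood at 1.037, 1.003 and 1.118 per CHD ATPase in WT mTEClo and at 0.593, 0.607 and 0.601 in WT mTEChi. In cHyper the MTA ratio went from 1.07, 1.03 and 1.11 to 0.708, 0.750 and 0.832. For these families, and for SMARCD, BCL7 and MBD, every mTEChi library lay below every mTEClo library over both genotypes. The denominator moved as well. In WT the mean of Smarca4 was 67.96 TPM in mTEClo and 84.9 in mTEChi, and that of Smarca2 was 32.0 and 43.6. In cHyper these means were 68.3 and 82.3 TPM for Smarca4 and 36.0 and 42.4 for Smarca2. A BAF ratio therefore does not separate a fall of the family from a rise of the ATPases in TPM. The HDAC family went the other way, from 0.491, 0.539 and 0.500 to 0.591, 0.656 and 0.666 in WT. The RBBP family did too, from 1.09, 1.08 and 1.19 to 1.65, 1.68 and 1.66.

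**Figure D3:**
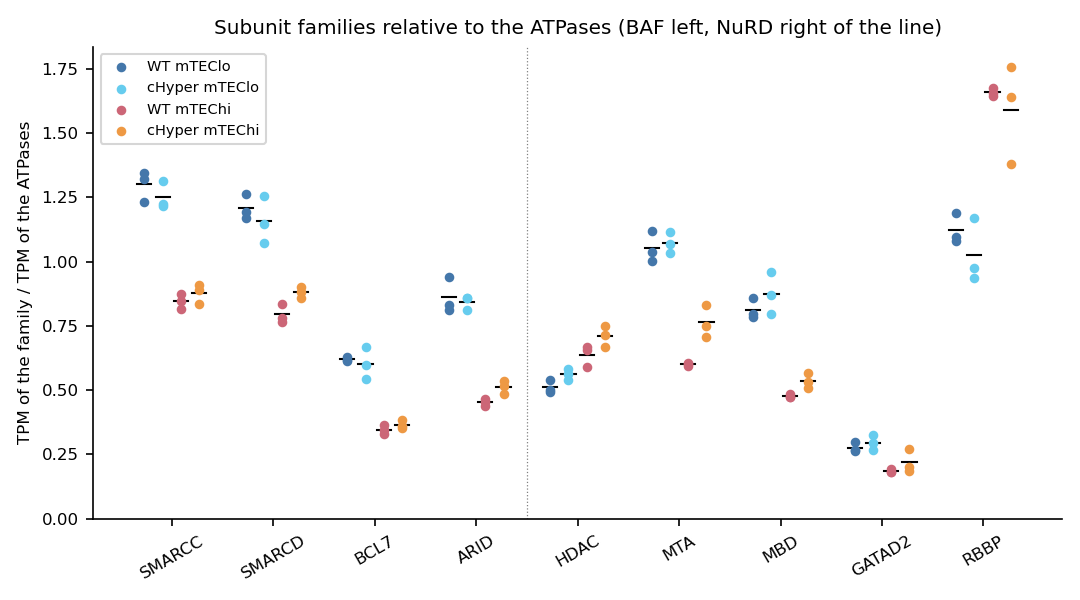
TPM of each subunit family divided by the TPM of the ATPases of its complex in the same library (y axis, from 0), for BAF left of the dotted line and NuRD right of it. Points are libraries, 3 per group, and black lines are means. The MTA and MBD families lie lower in mTEChi and the RBBP family higher, with no overlap between the cell types.

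The balance of related subunits was tested for 17 pairs as the log2 ratio of counts per length within a library. Among them, Arid1a/Arid2, Dpf2/Phf10 and Brd7/Brd9 compare subunits of different BAF assemblies, not paralogs of 1 place. Of the 17 pairs, 8 shifted between the cell types (two-sided exact permutation within genotype, 400 arrangements, smallest possible p 0.005, Benjamini-Hochberg adjusted over 34 tests). With the replicate numbers as a block 0 pairs passed, at a smallest possible p of 0.03125. Mta1 lost most to its paralog: its share of Mta1 plus Mta2 was 33.45, 35.01 and 34.97% in WT mTEClo and 18.8, 19.9 and 20.8% in WT mTEChi. In cHyper the Mta1 share went from 34.2, 33.6 and 29.0% to 19.9, 19.8 and 20.2%. The mean shift of Mta1/Mta2 was -1.01 on the log2 scale (adjusted p = 0.0213), and every library of mTEChi was below every library of mTEClo. Mbd2 against Mbd3 shifted by -0.68, from a mean share of 33.6% in WT mTEClo to 21.96% in WT mTEChi and from 33.4% to 26.2% in cHyper. Smarcd1 against Smarcd2 shifted by -0.68, with mean shares of 25.3% and 16.9% in WT and 22.4% and 15.9% in cHyper. Rbbp4 against Rbbp7 shifted by -0.56, with mean shares of 19.8% and 14.9% in WT and 24.5% and 17.5% in cHyper.

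Among the BCL7 genes the balance moved toward Bcl7b, by -0.62 for Bcl7a/Bcl7b and 0.80 for Bcl7b/Bcl7c. Arid1a gained on Arid1b by 0.34, from 60.3% ± 0.415 to 65.0% ± 0.676 in WT (SD, n = 3). For all of these pairs the adjusted p was 0.0213. Mta3/Mta2 shifted by 0.62 (adjusted p = 0.0378), with an overlap of the cell types in cHyper. Pairs that did not pass included both ATPase pairs, Smarca2/Smarca4 (0.05, adjusted p = 0.829) and Chd3/Chd4 (0.08, adjusted p = 0.631), and Arid1a/Arid2 (0.01, adjusted p = 0.823). Smarcd1/Smarcd3 (0.33, adjusted p = 0.0510) and Smarcc1/Smarcc2 (0.14, adjusted p = 0.0654) missed the threshold narrowly.

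**Figure D4:**
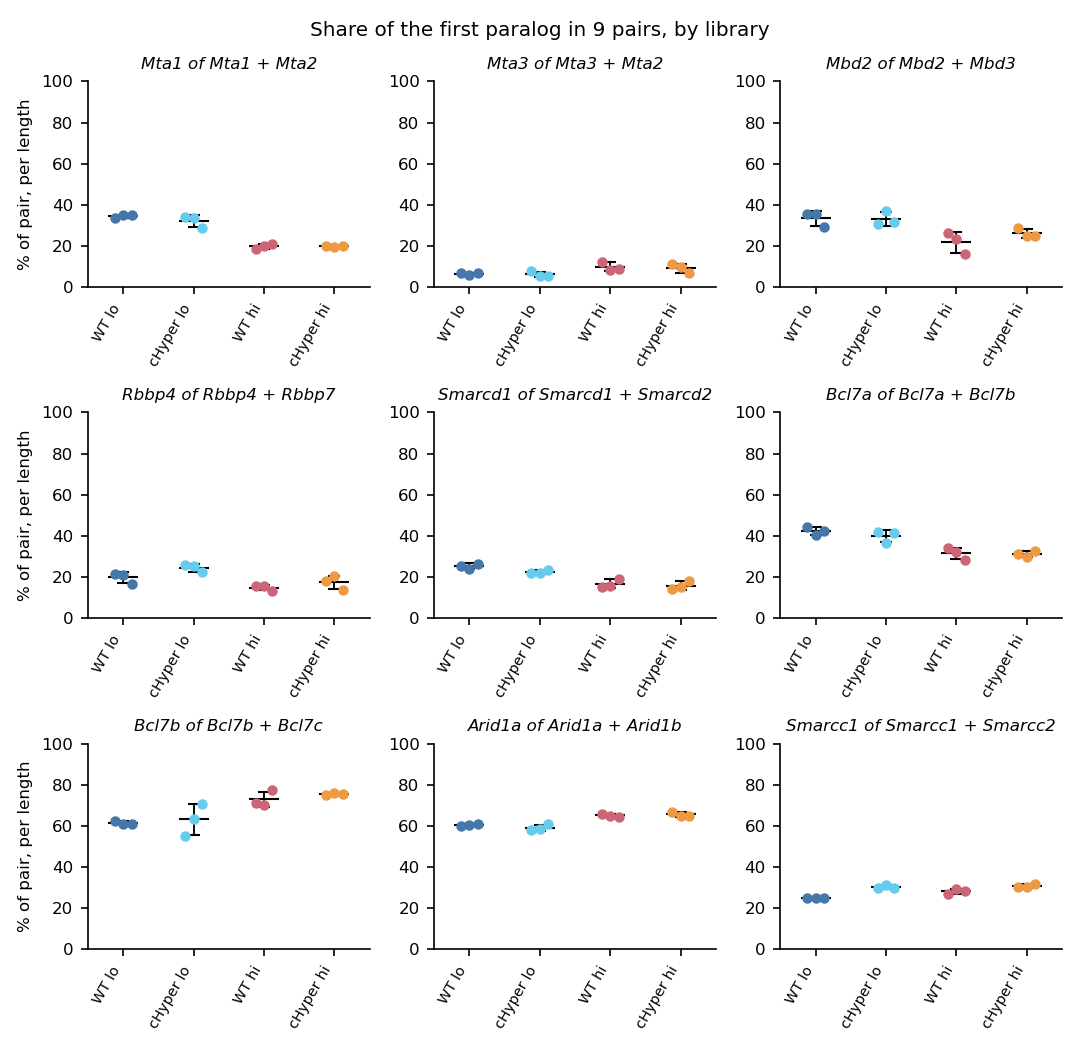
Share of the first-named paralog in the sum of both, in percent of counts per length (y axis, 0 to 100), for the 8 pairs that shifted between the cell types and for Smarcc1/Smarcc2. Points are libraries, lines are means and bars ± SD (n = 3), with lo for mTEClo and hi for mTEChi. Mta1 goes from about 34.5% in WT mTEClo to 19.9% in WT mTEChi, and Smarcc1 is higher in cHyper than in WT within each cell type.

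Between the genotypes 1 member was called in mTEClo. Ss18 rose in cHyper and 0 members fell by edgeR, beside 4.53% of all genes called higher and 4.64% lower (9.16% in all). Ss18 read 98.0, 93.9 and 89.3 CPM in WT mTEClo and 127, 116 and 112 in cHyper mTEClo, without overlap (log2 0.34, SE 0.083, adjusted p = 0.0204). The Ss18 call rested on single libraries: it was lost without WT mTEClo replicate 2 (adjusted p = 0.0573) or 3 (0.106), without cHyper mTEClo replicate 1 (0.110) or 2 (0.0522), with replicates 1 and 2 only (0.0669) and without the filter (0.0760). It was lost with the compared groups only too, and in all was kept in 13 of the 20 alternatives. The median log2 fold change was 0.07 for the members and 0.00147 for all genes, and the largest change in either direction was 0.34. At an unadjusted p under 0.05 stood 6 members, and the share of all genes at that p was not computed. Of 10 myeloid and dendritic genes 2 were called lower in cHyper mTEClo, and of 7 fibroblast genes 2 were called higher and 1 lower, and their part in the member values was not tested. In 3 members all cHyper libraries lay above all WT libraries and in 3 below, beside 11.8% and 12.6% of all genes (24.4% in all). Counted without adjustment beside Ss18 were Smarcc1 (0.31), Pbrm1 (0.33), Hdac2 (0.23), Smarcd3 (-0.30) and Brd9 (-0.28), as log2 fold changes.

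With the replicate number as a block, 3 members were called higher and 2 lower in cHyper mTEClo, beside 7.02% and 6.52% of all genes in that fit. These were Ss18, Smarcc1 (adjusted p = 0.0238) and Pbrm1 (0.0113), and Smarcd3 (0.0425) and Brd9 (0.0281). DESeq2 called 2 higher and 2 lower, beside 6.54% and 6.97% of all genes. Chpf2, which shares exon bases with Smarcd3 on the other strand, had a log2 fold change of -0.30 (SE 0.091, adjusted p = 0.0542 in the edgeR fit) here, as did Smarcd3 (-0.30), and how much of the Smarcd3 value is Chpf2 RNA was not tested. Smarcc1 read 122, 126 and 109 CPM in WT and 149, 160.2 and 131 in cHyper, without overlap. Brd9 read 62.4, 59.5 and 56.5 CPM in WT and 48.3, 51.8 and 47.3 in cHyper, also without overlap.

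In mTEChi edgeR called 0 members between the genotypes, beside 1.56% of all genes called higher and 0.418% lower (1.98% in all). An unadjusted p under 0.05 was reached by 6 members, again without a share over all genes computed. DESeq2, limma-voom and the replicate block called 1 member higher each and 0 lower. Of all genes DESeq2 called 2.47% higher and 2.56% lower, limma-voom 1.76% and 1.22%, and the replicate block 3.25% and 1.07%. That member was Mta2 in each case (adjusted p = 0.0691 in the edgeR fit, 0.0123 with DESeq2, 0.0458 with limma-voom and 0.0266 with the block). Mta2 read 131, 138 and 121 CPM in WT mTEChi and 161, 159.5 and 175 in cHyper mTEChi, without overlap (log2 0.34, SE 0.090). Mta1 read 23.0, 26.1 and 24.2 CPM in WT and 30.2, 29.9 and 33.5 in cHyper, without overlap (log2 0.35, SE 0.12, adjusted p = 0.161). In 14 members all cHyper libraries lay above all WT libraries and in 1, Smarcd3, below, beside 12.4% and 13.3% of all genes (25.7% in all). The log2 fold changes of the members ran from -0.14 to 0.39 with a median of 0.16, against -0.0037 for all genes, and 29 of the 35 were above 0. With library totals 24 were above 0 and the median was 0.089, against -0.071 for all genes. With replicates 1 and 2 only the median was 0.093. The Mta2 and Mta1 values in mTEChi are also part of the comparison between the cell types of each genotype, so these comparisons are not independent of each other.

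**Figure D5:**
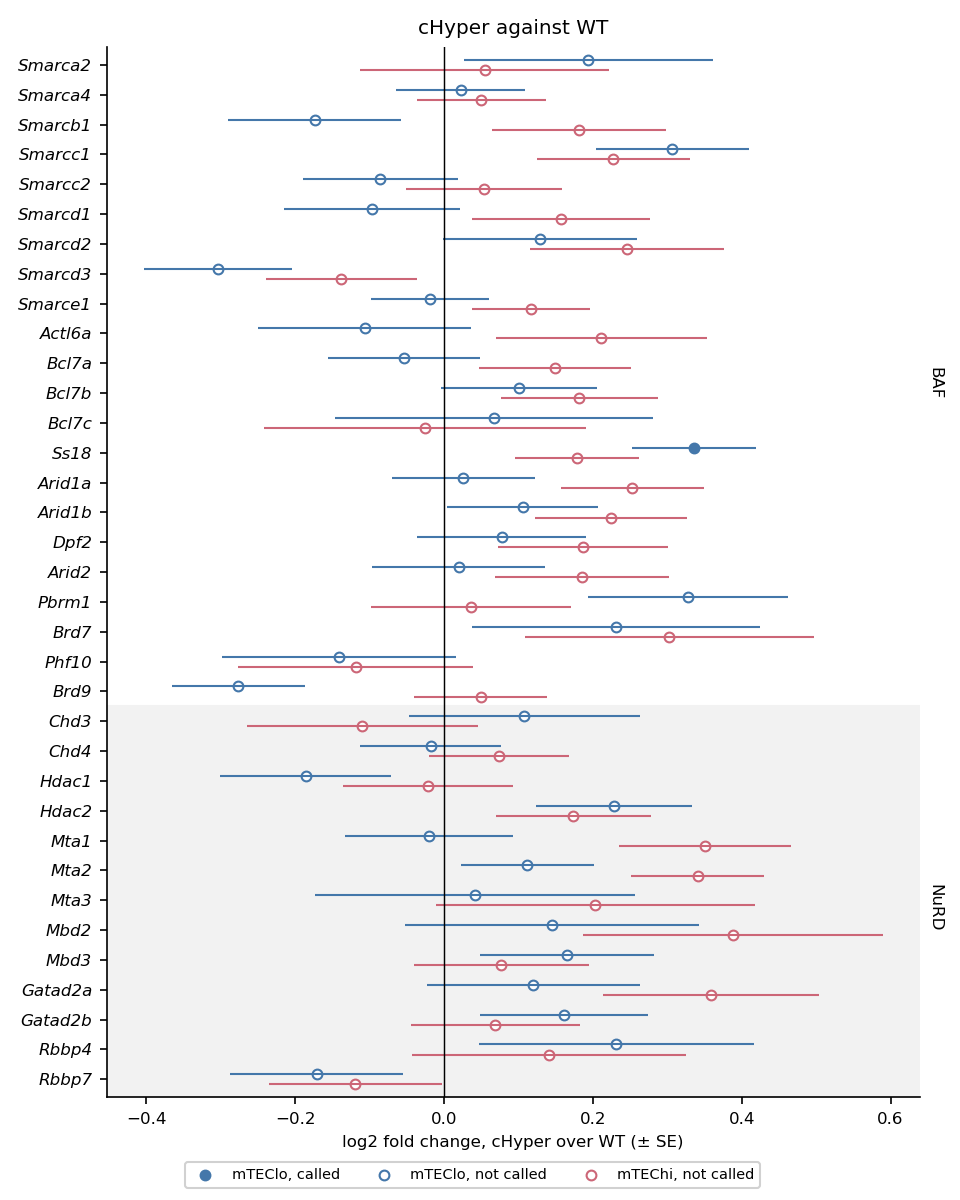
Log2 fold change of cHyper over WT (x axis, bars ± SE) for the 35 members in mTEClo (blue) and mTEChi (red), 3 libraries per group. The filled point is Ss18 in mTEClo, the 1 called change, and all others are open. The values run from -0.30 to 0.34 in mTEClo and from -0.14 to 0.39 in mTEChi.

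The difference of the cHyper effect between the cell types was called for 0 members by edgeR, DESeq2, limma-voom and the block. By edgeR 2.06% of all genes were called (1.13% higher, 0.926% lower). An unadjusted p under 0.05 was reached by 3 members, and the share of all genes at that p was not computed. Those were Brd9 (log2 0.33, SE 0.13, adjusted p = 0.237), Mta1 (0.37, SE 0.16, adjusted p = 0.307) and Smarcb1 (0.35, SE 0.16, adjusted p = 0.347). Of the 20 members that fell in both genotypes, the fall was smaller in cHyper in 16. Over all genes the median size of the log2 change between the cell types was also smaller in cHyper, 0.81 against 0.93 in WT. The share of all genes with a smaller fall in cHyper was not computed. Standard errors of a member's difference were at least 0.11. With 3 libraries a group, differences well above a standard error could also go uncalled, as those of Brd9, Mta1 and Smarcb1 did.

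The Smarcc1/Smarcc2 balance shifted with genotype, the 1 pair of 17 to do so in a permutation that does not use the replicate numbers. With the numbers as a block 0 pairs passed, at a smallest possible p of 0.03125, and with a library left out 1 to 3 pairs did (2 without cHyper mTEClo replicate 2, 3 without cHyper mTEChi replicate 3). The share of Smarcc1 was 24.8, 24.9 and 25.0% in WT mTEClo and 29.70, 31.19 and 29.999% in cHyper mTEClo. In mTEChi it was 27.0, 29.3 and 28.4% in WT and 30.2, 30.4 and 31.6% in cHyper. No WT library reached a cHyper library of its cell type, and the mean shift was 0.28 on the log2 scale, 0.39 in mTEClo and 0.17 in mTEChi (two-sided exact permutation within cell type, adjusted p = 0.0213). Hdac1/Hdac2 (-0.31, adjusted p = 0.0618), Dpf2/Phf10 (0.29, adjusted p = 0.0654) and Rbbp4/Rbbp7 (0.33, adjusted p = 0.0850) did not pass.

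Genes of other remodelers and corepressors give the setting of these changes. Their counts between the cell types stand beside 29.4% of all genes called lower and 40.2% higher in WT. In cHyper these shares were 25.8% and 38.7%. Between the cell types of WT, 8 of 11 ISWI genes fell and 1 rose (Baz1a, log2 0.77), with a median of -0.46, and the counts were equal in cHyper. Of 20 genes of INO80, SRCAP and TIP60, 12 fell and 1 rose in WT (Ino80c, 1.10), 10 fell and 2 rose in cHyper, and Vps72, which handles histone H2A.Z, fell (-1.0). Of 14 other deacetylase corepressor genes 10 fell in WT and 13 in cHyper, Rcor3 (-1.66 in WT) among them, with a WT median of -0.61. Of 7 other CHD genes 2 fell in each genotype, Chd7 (-0.91) and Chd8 (-0.54). Of 9 further BAF genes 5 fell and 3 rose in WT, among them Bcl11a (-2.24) and Dpf3 (3.42). Dpf3 was very scarce, at 0.0694 to 0.281 CPM in WT mTEClo and 1.13 to 1.80 in WT mTEChi. Bcl11a stood at 52.7 to 60.1 CPM in WT mTEClo and 11.7 to 12.6 in WT mTEChi. Of 6 further NuRD genes tested 2 fell and 3 rose in WT, among them Cdk2ap1 (-0.52) and Chd5 (2.78). Between the genotypes these 6 lists held 3 called genes in mTEClo, Ss18l1 (0.47), Pole3 (0.41) and Chd7 (0.36), all higher. Of all genes 4.53% were called higher there and 4.64% lower. In mTEChi edgeR called 0 genes of these lists, beside 1.56% of all genes called higher and 0.418% lower. At an unadjusted p under 0.05 stood 0 to 2 per list, a count without a share over all genes.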

How the data were processed

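RNA-seq of sorted mTEC was analysed from 12 libraries, 3 per group. The 20 samples in the labels hold 2 runs each of replicates 1 and 2, which the deposited table combines. The authors' deposited values used here are fragment counts per gene, not normalized. Per the submitters' processing notes, the tools were featureCounts (Subread 2.0.1), TopHat2 2.1.1 and SAMtools 1.9, with build mm10; settings and strandedness are not recorded there. A further 13 columns of the deposited table, 12 of them TPM, were not used.

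Counts of 28932 genes that passed filterByExpr were fitted with edgeR 4.0.16 (R 4.3.3; TMM scaling, quasi-likelihood F test, group means, all 12 libraries, 8 residual degrees of freedom), with Benjamini-Hochberg adjustment over all genes and a threshold of 0.05. CPM are TMM-scaled. TPM were computed from the counts and the deposited gene lengths. Paralog ratios were tested by exact permutation within strata. The scripts were tested on simulated data. Depth was 22.02 to 47.93 M fragments per library, and the smallest member count was 399 (Mta3).

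Alternatives were DESeq2 size factors, library totals, no filter, DESeq2 1.42.0, limma-voom (limma 3.58.1), the replicate number as a block, replicates 1 and 2 only, the compared groups only, and each library left out. Same-numbered libraries deviated together from their group means (18 correlations of 0.147 to 0.420, and 12 of 12 libraries correlated best with their own number). The replicate block uses this pairing. The edgeR fit on group means and the permutation tests within strata, which gave the calls and shifts reported first, do not use it. Whether each library came from other animals is not stated in the labels, and every p-value reflects only how far these samples spread, which may be technical.

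The members, lists and pairs were chosen with earlier results of these data known. All 35 members are named; those called in any comparison are given with every library, and of each other list at most the 2 genes of smallest p are named.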

Additional observations from a re-analysis of the deposited data

How the results depend on the processing

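Of the 35 members, 0 called values changed direction in the 20 alternatives. Of 3465 recomputed member values, 55 lost and 60 gained a call. Falls between the cell types were kept under every alternative by 17 of 23 members in WT and 15 of 20 in cHyper. The same was not counted over all genes. In cHyper against WT in mTEClo, the count of members higher, 1 by edgeR, became 0 without the filter, with replicates 1 and 2 only and with the compared groups only, 2 with DESeq2 and 3 with the replicate block, and 0 to 1 with a library left out. The count of members lower there, 0 by edgeR, became 1 with DESeq2 size factors or library totals and 2 with DESeq2 or the replicate block. In that order these called 4.87%, 4.82%, 6.97% and 6.52% of all genes lower. Called higher were 6.54% with DESeq2 and 7.02% with the block. Higher were 1451 of 45445 genes without the filter, 911 of 29156 with replicates 1 and 2 only and 816 of 22776 with the compared groups only. With a library left out, 801 to 1286 of 29557 to 29949 genes were called higher. In mTEChi the count of members higher, 0 by edgeR, became 1 with DESeq2, limma-voom or the replicate block. In that order these called 2.47%, 1.76% and 3.25% of all genes higher.

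Between the cell types of WT, the count of members higher, 1 by edgeR, became 3 with DESeq2 size factors, DESeq2 or the replicate block, 8 with library totals and 1 to 2 with a library left out (2 without WT mTEClo replicate 1 or WT mTEChi replicate 3). In cHyper the count of members higher, 2 by edgeR, became 4 with library totals or DESeq2, 0 with replicates 1 and 2 only, and 1 to 3 with a library left out (1 without cHyper mTEClo replicate 1 or 3, and 3 without WT mTEChi replicate 3 or cHyper mTEChi replicate 1). The counts of members lower stayed at 19 to 23 in WT and 18 to 24 in cHyper with a library left out. Those fits tested 29557 to 29949 genes and called 7725 to 9149 lower in WT and 6684 to 7988 in cHyper. They called 11469 to 12134 higher in WT and 10673 to 11632 in cHyper. In WT 42.3% of all genes were higher with DESeq2 size factors, 42.4% with DESeq2, 41.2% with the block and 45.3% with library totals. In cHyper 43% were higher with library totals and 40.1% with DESeq2, and 10923 of 29156 with replicates 1 and 2 only. The cause of the moves in member counts was not tested.

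Of the paralog pairs, the 1 shift with genotype became 0 when at least 0.3 was required or with the replicate block, and 1 to 3 with a library left out (2 without cHyper mTEClo replicate 2, 3 without cHyper mTEChi replicate 3). The 8 shifts with cell type became 0 with the replicate block, whose smallest possible p of 0.03125 can pass the adjustment only if most of the 34 tests reach it, and 7 to 9 with a library left out. Values with the replicate block are given in the report beside the members whose call it changed, and it changed no other call. With 3 libraries a group, changes of the size of a standard error, 0.079 to 0.22 on the log2 scale, were not detectable, and larger ones could also be missed.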
